A study of Drosophila melanogaster with 2 samples.

Results

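The genes cbt, Lk6, larp, Alh, Unc-115a, CG6966 and CG18428 each had a place of high ChIP-seq signal close by that was missing from the set of reproducible peaks deposited for the zinc finger protein Dati. These 7 genes, of 18164 on the 6 main chromosome arms, were chosen by measured values: a high signal in the ranked list of pooled reads, together with the lack of an identical interval in the thresholded set made from that list, called the optimal set here. All 7 were found by symbol. Every signal below is therefore a description of loci selected on that signal, and none carries a test. The data were 1 group of 2 biological replicates of whole Drosophila melanogaster embryos aged 8 to 24 hours, of a strain in which the gene dati is fused to enhanced green fluorescent protein (eGFP). The sonicated chromatin (size range 200 to 800 in the labels, which give no unit) was pulled down through the GFP tag. There was no group without the fusion protein, the lists hold no read counts, and the depth of each library is unknown.

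ChIP-seq recovers DNA fragments that were crosslinked to a protein, and a peak is a place where such fragments pile up over a control. A peak caller can be run loosely to give a long ranked list, and the irreproducible discovery rate (IDR) then measures how well the rank of each place repeats between replicates or between subsets of the reads. Places that pass a limit on the IDR form a thresholded set. Zinc finger proteins such as Dati bind DNA through small domains folded around a zinc ion.

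The 7 loci lay on 2 arms: cbt on 2L and the other 6 on 3R, all in coordinates of build dm6. The optimal peaks were not counted by arm, so this is a description only. The genes are of several kinds. Cabut (cbt) is a zinc finger transcription factor, Lk6 is a kinase of the cap-binding translation factor eIF4E, and larp encodes a La-related RNA-binding protein. Alh is the fly counterpart of mammalian AF10, a chromatin protein, and Unc-115a encodes an actin-binding LIM protein related to UNC-115 of Caenorhabditis elegans. CG6966 and CG18428 carry annotation symbols only.

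The DNA at the summit of each locus, the single base where the signal peaked, is shown so that the places can be found and compared, as the pooled summit with 50 bases to each side. The sequences were read from the Release 6 assembly on the plus strand. Capitals mark matches to any of 12 short motifs searched on both strands: DRE (TATCGATA), a BEAF-32 type site (CGATA), the GAGA factor letters GAGAG, the core of motif 1 (GGTCACAC), E-box (CANNTG), Zelda (CAGGTAG), the TATA box letters TATAAA, a heat shock unit (GAANNTTC), the core of a CTCF site (AGGNGGC), and runs of A (AAAAAAAA), CA (CACACACA) and GA (GAGAGAGA). DRE contains the BEAF-32 type letters and the GA run contains GAGA.
cbt, 2L:481054-481154: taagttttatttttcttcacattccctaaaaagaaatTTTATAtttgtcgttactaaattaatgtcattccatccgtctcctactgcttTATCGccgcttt
Lk6, 3R:11760990-11761090: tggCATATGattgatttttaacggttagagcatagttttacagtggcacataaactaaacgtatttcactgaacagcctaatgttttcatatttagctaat
larp, 3R:28326559-28326659: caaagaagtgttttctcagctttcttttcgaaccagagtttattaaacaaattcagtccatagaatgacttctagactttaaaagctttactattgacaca
Alh, 3R:7108976-7109076: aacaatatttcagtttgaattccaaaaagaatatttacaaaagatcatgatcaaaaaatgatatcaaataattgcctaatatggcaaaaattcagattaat
Unc-115a, 3R:9702723-9702823: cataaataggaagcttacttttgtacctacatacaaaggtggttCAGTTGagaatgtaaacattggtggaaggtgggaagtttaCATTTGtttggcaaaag
CG6966, 3R:15095859-15095959: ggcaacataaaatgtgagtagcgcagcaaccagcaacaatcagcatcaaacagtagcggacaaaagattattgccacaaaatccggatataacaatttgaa
CG18428, 3R:24109104-24109204: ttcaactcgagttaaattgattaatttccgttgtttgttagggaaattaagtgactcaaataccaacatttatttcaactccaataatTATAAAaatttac

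The sequences were rich in A and T and had few of these motifs. Their GC content ran from 21.8% at Alh to 39.6% at CG6966, with a median of 31.7%, beside a median of 34.7% over 1892 optimal summits on the 6 arms and of 29.7% over the 245 of them with at least the pooled signal of Unc-115a, the weakest member. The E-box letters were found at 2 of the 7 places, Lk6 and Unc-115a (37.2% of the optimal windows hold them, and 43.6% of 154043 pooled windows). TATA letters were found at cbt and CG18428 (18.2% of the optimal windows and 7.66% of the pooled windows), and CGATA on the other strand at cbt (13.5% and 10.6%). Over the 245 optimal windows with at least the signal of Unc-115a the shares were 31.8% for E-box, 24.9% for TATA and 11.8% for CGATA. The windows of larp, Alh and CG6966 held none of the 12. DRE, motif 1 and Zelda letters, present in 1.16%, 0.899% and 0.476% of the optimal windows, were in none of the 7, nor were GAGA (10.4%), the heat shock unit (3.70%), the CTCF core (3.49%) or the runs of A (7.08%), CA (1.37%) and GA (0.317%). GAGA letters were in 4.9% of the 245 windows. With 7 windows, these counts describe the places and compare nothing.

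The summit sequences of the 7 genes occurred once in the assembly. Each window holds 70 overlapping words of 32 bases, and none of the words in the 7 windows had another exact copy on either strand of the assembly, unplaced sequence included. At the 50 other strong places on the arms that were absent from the optimal set, 16 windows held at least 1 repeated word, and in 5 of them every word was repeated. These 50 places were not matched to the 7 in signal. Among the 1892 optimal peaks on the arms 11 windows (0.581%) held a repeated word. Of the 245 with at least the signal of Unc-115a, 0 did, as at the 7 places. Soft-masked bases, which the assembly marks as repeats or simple sequence, were in 5 of the 7 windows, with 50 bases at CG18428, 43 at cbt, 17 at Lk6 and 12 each at Alh and CG6966, while the windows of larp and Unc-115a had none. The share of windows with such a base was 66.0% over the optimal peaks, 73.5% over the 245 and 74.0% over the 50 other absent places. No annotated transposable element overlapped any of the 7 places, a count not made for the optimal peaks or the other absent places.

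In the pooled list, ranked by the authors' signal value, cbt stood 3rd of 156658 places with a signal of 765. Ranks 1 and 2 lay outside the 7 loci. Lk6 stood at rank 12 with 562.4 and larp at rank 33 with 405.8. The other 4 formed a lower group: CG6966 at rank 148 with 200.4, Alh at rank 175 with 190.1, CG18428 at rank 206 with 175.9 and Unc-115a at rank 258 with 159.9. No label or file header names the scale of the signal value, so ranks within a list stand beside it. By rank the places of the first 3 genes stood among the 33 strongest of the genome.

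**Figure D1:**
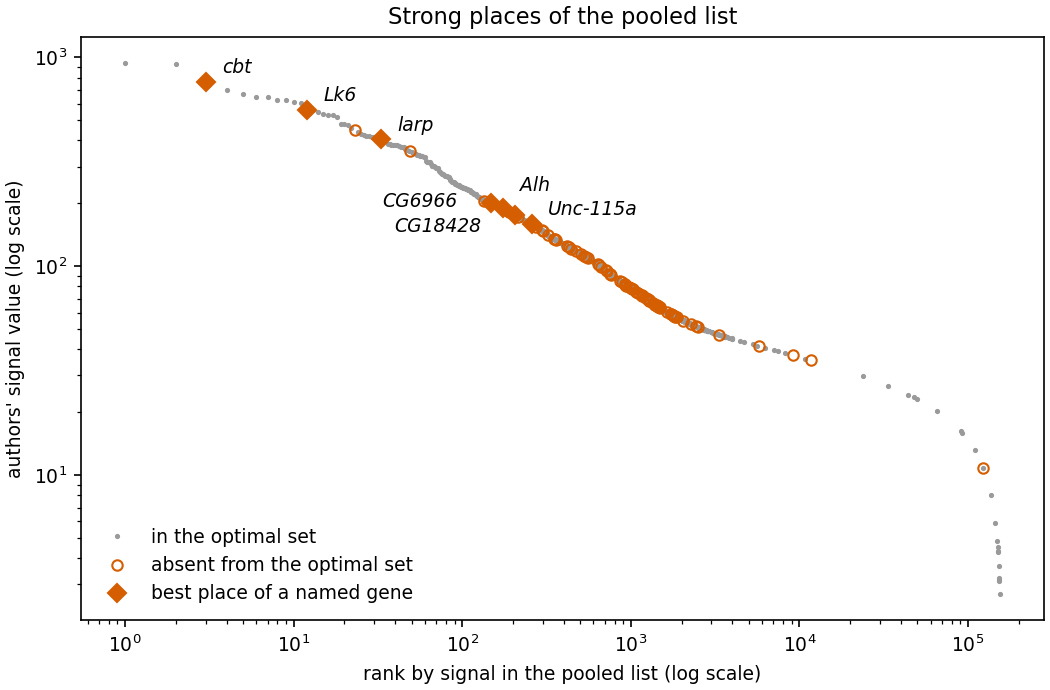
Signal value against rank by signal (both on log axes) for the 2004 strong places of the pooled list: grey points are in the optimal set, open circles are absent from it and filled diamonds are the best places of the 7 genes. All places lie on 1 curve because the rank is made from the signal; the diamonds run from rank 3 (cbt) to rank 258 (Unc-115a).

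All 7 places carried the highest IDR score. So did weaker places, among them an optimal peak at larp with a signal of 111.4 at rank 537. The score is capped at 1000, and the lowest score in the optimal set is 830. The IDR itself, held as a −log10 value with a cap of 5, was at that cap for cbt, Lk6 and larp, and 4.29, 4.06, 3.98 and 3.87 for CG6966, Alh, CG18428 and Unc-115a. Of the 2004 pooled places with a score of 830 or higher, called strong here, 89 (4.44%) had no identical interval in the optimal set. Among the 258 pooled places with at least the signal of Unc-115a, 12 (4.65%) had none: 8 in the loci of the 7 genes and 4 elsewhere. Of the 89 absent strong places 66 had a score of 1000. The rule used these values, and nothing further is read from the shares.

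The kept peaks next in signal were looked up for the strongest and the weakest member. Directly above cbt stood the kept peak at Ugalt with 928.8 and directly below it the kept peak at CG7601 with 696.2. Around Unc-115a the kept peaks were at CG32767 with 160.6 and at scramb2 with 159.4. The neighbours of cbt were thus far apart and those of Unc-115a close together, and both are given as a description of the signal that chose the members.

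Both replicates held each of the 7 places, and the place of highest signal in a locus was the same in all 3 lists. At cbt the signal was 438.5 in replicate 1 and 345.4 in replicate 2, with ranks 3 and 4. At Lk6 it was 310.4 and 260.1, with ranks 14 and 13, and at larp 209.0 and 195.4, with ranks 39 and 31. These 3 genes kept nearly the same standing in either replicate.

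In the lower group CG18428 and CG6966 differed most between the replicates. At Alh the signal was 92.9 in replicate 1 and 88.6 in replicate 2 (ranks 212 and 191), and at Unc-115a it was 90.7 and 72.8 (ranks 228 and 278). CG18428 was the stronger in replicate 1, with 108.1 against 65.4 and ranks 155 and 354. CG6966 went the other way, with 87.2 against 118.1 and ranks 246 and 97, and was the only one of the 7 with the higher signal in replicate 2. The order of the lower 4 genes thus differed between the replicates: CG18428 led them in replicate 1 and came last in replicate 2, where CG6966 led.

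**Figure D2:**
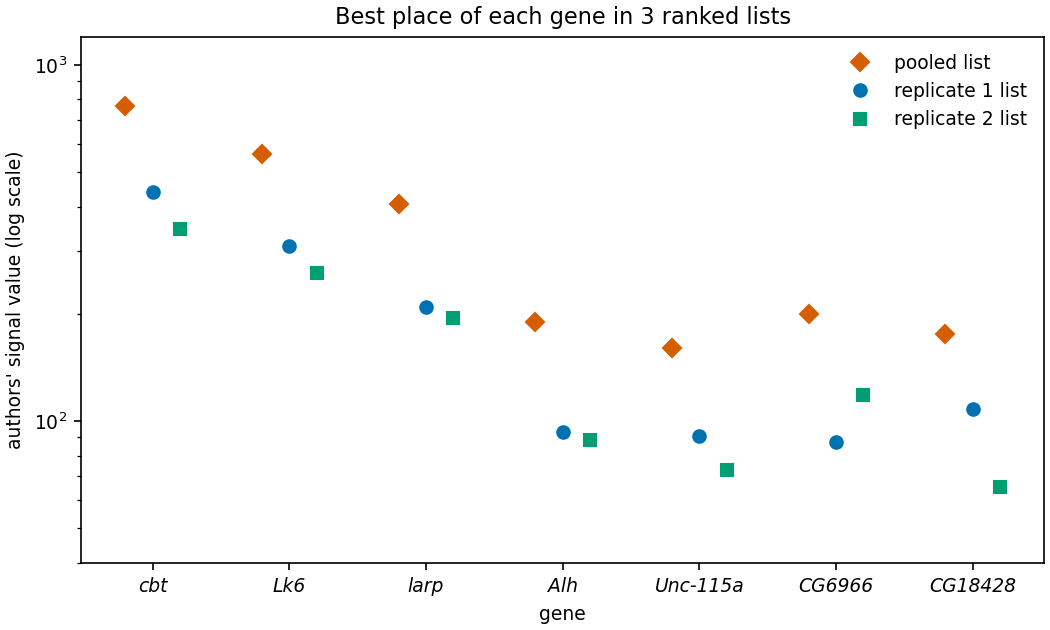
Signal value (log axis) of the best place of each gene in the pooled list (diamonds), the list of replicate 1 (circles) and the list of replicate 2 (squares); each point is 1 place and there are no error bars. cbt, Lk6 and larp are the 3 highest in every list, and CG6966 alone has replicate 2 above replicate 1.

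The ratio of replicate 2 to replicate 1 ran from 0.605 at CG18428 to 1.35 at CG6966, with a median of 0.838. At 244 optimal peaks on the arms with at least the pooled signal of Unc-115a and a place in both lists, its median was 0.867 and its 5th and 95th percentiles were 0.578 and 1.37. All 7 ratios lay within those percentiles. With 1 value per replicate, a difference at a single place has no test.

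**Figure D3:**
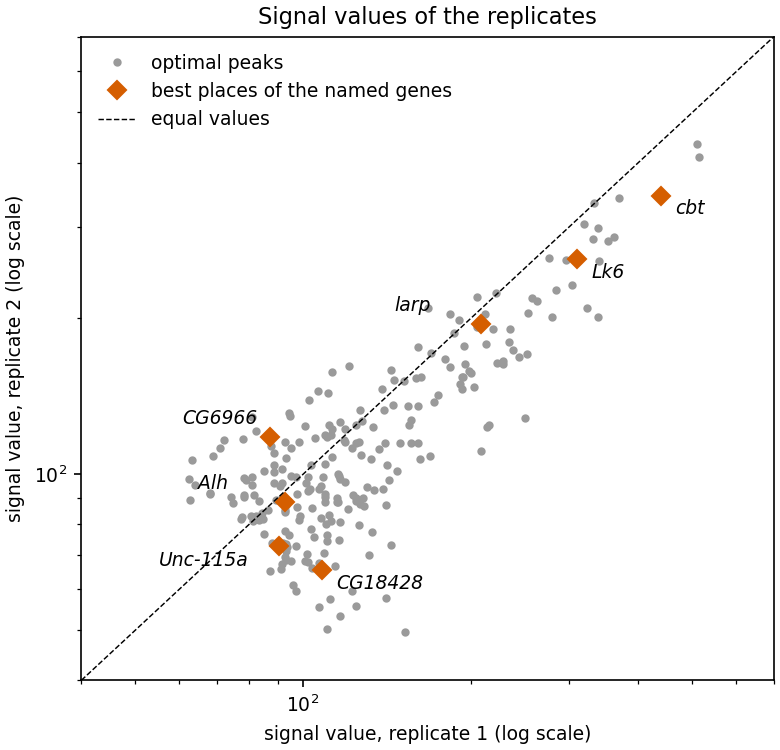
Signal value in replicate 2 against replicate 1 (log axes) at the best places of the 7 genes (diamonds) and at 244 optimal peaks of at least the same pooled signal (grey points); the dashed line marks equal values. The diamonds lie within the cloud of the kept peaks, with CG6966 above the line and CG18428 the farthest below it of the 7.

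The summits repeated closely in position. The replicates' summits were 4 bp apart at Unc-115a, 14 bp at Lk6, 18 bp at cbt and 28 bp at larp. At CG18428 they were 38 bp apart, and at Alh and CG6966 39 bp. The place at cbt was 214 bp wide, that at Lk6 164 bp and that at larp 135 bp. The CG6966 place was 69 bp wide in the pooled list but 250 and 244 bp in the replicates' lists, and the other 3 had 264 bp. Among the 245 kept peaks with at least the signal of Unc-115a the widths ran from 66 to 264 bp, with a median of 212 bp.

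None of the 7 places was restored by another thresholded set. No peak of the optimal set, the conservative set or either replicate's own set overlapped any of them by even 1 bp. The lists of the replicates showed the same kind of omission: 48 of 1256 strong places of replicate 1 (3.82%) and 65 of 942 of replicate 2 (6.9%) had no identical interval in the replicate's own set, as did 69 of 1744 (3.96%) of the list comparing the replicates with each other (the paired list) against the conservative set made from it. The deposited documentation names, for the thresholded sets alone, a further source file whose content was not used here. It may be a list of regions to leave out, and its part in these omissions was not tested. Absent therefore means here only that the interval is not in the set, and not that the place failed the limit on the IDR.

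Across the 7 loci, taken as the gene span and 5000 bp to each side, the pooled list held 218 places, of which 19 were strong. 11 of these were absent from the optimal set and 8 were kept. Replicate 1 had 191 places with 11 absent and 4 kept among its strong ones, and replicate 2 had 152 places with 10 absent and 3 kept. Each gene was chosen for an absent place, so these counts are in part fixed by that choice. Over all strong places 4.44% were absent in the pooled list, 3.82% in replicate 1 and 6.9% in replicate 2. Within this flank of 5000 bp the loci fell into 2 kinds by what else they held, and the split depends on the flank. The kept peak nearest to the best place of cbt was 4519 bp away but outside its locus. At CG6966 the nearest kept peak was farther, at 7937 bp, but inside the locus. Other flanks were not tried for the split.

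At cbt, Lk6 and Unc-115a no place within the locus was kept. The cbt locus (FBgn0043364, 2L 476446 to 479688, minus strand) had 5 strong places, and all 5 were absent. The strongest, at 480990 to 481203, lay 1416 bp upstream of the cbt start site and inside an intron of ush, which runs on the opposite strand and encodes a cofactor of GATA factors. The others were at 479949 to 480212 (signal 172.4, 393 bp upstream of the start site), 480679 to 480744 (153.6), 472345 to 472608 (147.1, 277 bp upstream of CG4297) and 481862 to 482125 (65.4). Together they spanned 9781 bp, within 16705 bp that had no kept peak.

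The replicates repeated the first 4 of these places. Replicate 1 had signals of 112.2 at the narrow place at 480679, 94.9 at the one nearest to the cbt start site and 81.7 at the one near CG4297. Replicate 2 had 65.7, 76.9 and 54.9 there. The weakest of the 5 was strong in replicate 1 alone, with 54.7. The gene span of cbt itself held only weaker places, the best of which had a pooled signal of 42.3 and a score of 422.

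At Lk6 (FBgn0017581, 3R 11750931 to 11764457, minus strand) a single place dominated. Its signal was 11.6 times that of the next place in the locus, which had 48.3, and the same ratio was 11.0 in replicate 1 and 10.4 in replicate 2. Its summit at 11761040 lay in an intron, 961 bp upstream of an internal start site of Lk6. The 34 other places of the locus were all below a score of 830; those with summits 225 bp downstream of the internal start site and 76 bp downstream of the outer one had signals of 48.3 and 44.0. The nearest kept peaks were 82592 and 17228 bp away.

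Unc-115a (FBgn0051352, 3R 9694386 to 9705417, minus strand) had the same shape at a lower level. The place at 9702641 to 9702904 had 4.51 times the signal of the next, at 35.4, and lay in an intron 2644 bp downstream of the outer start site. Of the 18 pooled places it was the only strong one. No kept peak lay within 68602 bp.

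**Figure D4:**
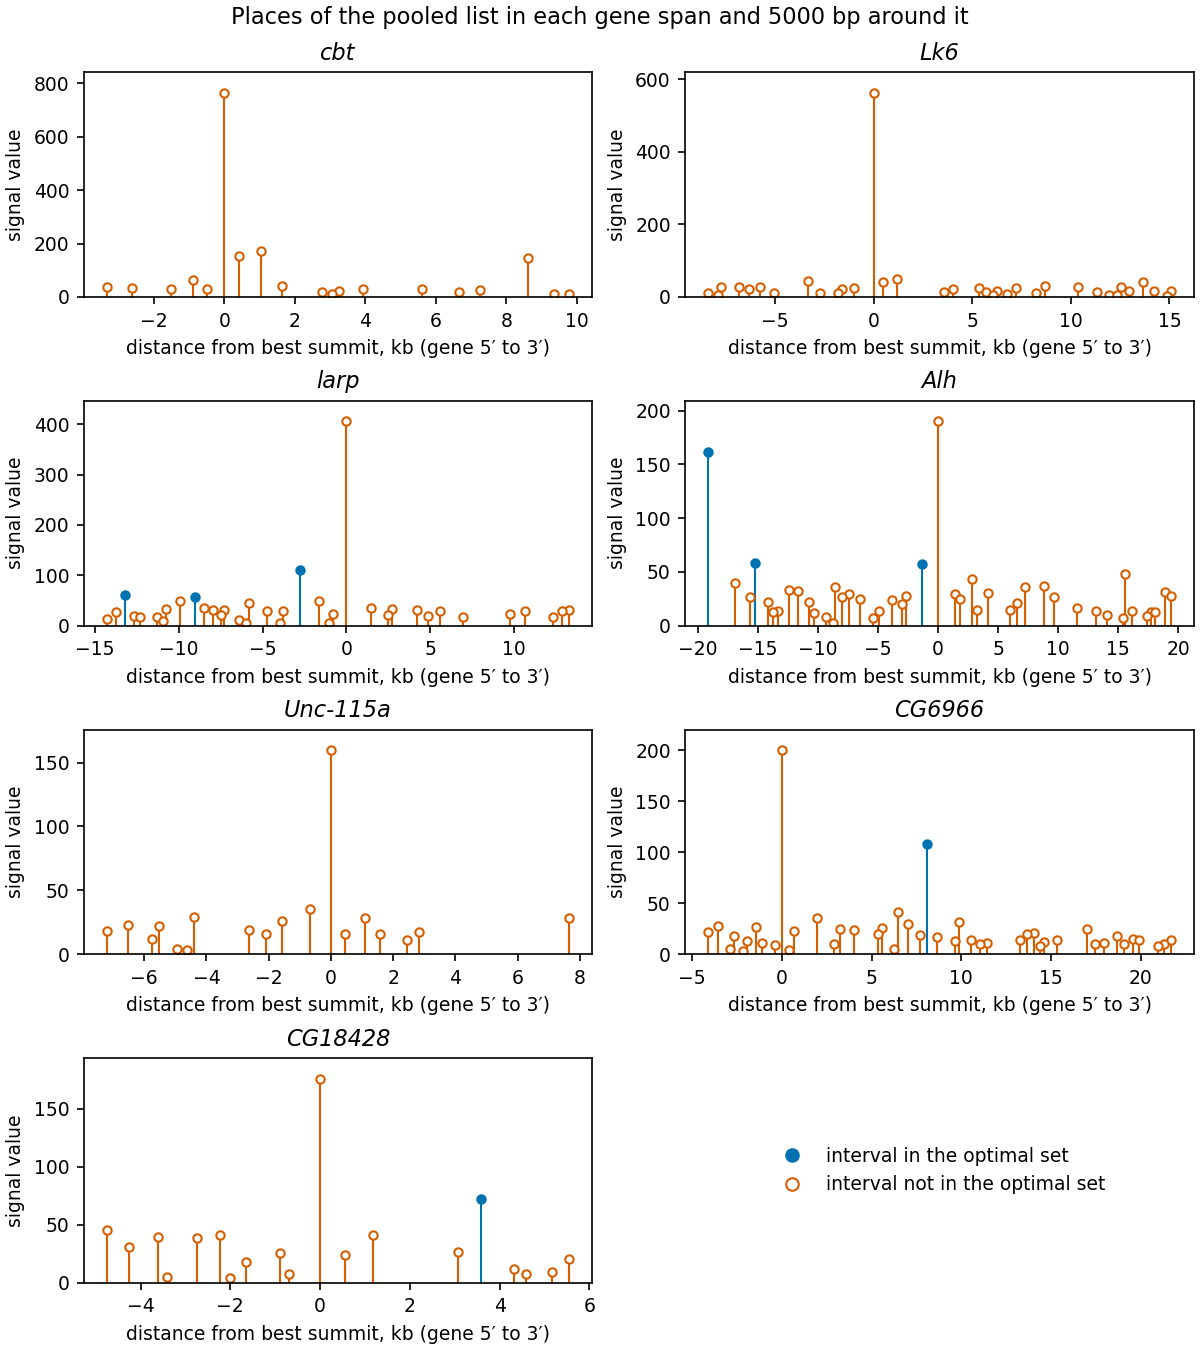
Signal value of every pooled place in the span of each gene and 5000 bp around it, against the distance of its summit from the best summit in kb, with the gene running 5′ to 3′ from left to right. Filled points are in the optimal set and open points are not; cbt, Lk6 and Unc-115a have no filled point.

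At larp, Alh, CG6966 and CG18428 weaker places were kept while the strongest was absent. The larp place (FBgn0261618, 3R 28318162 to 28336440, minus strand) lay at 28326538 to 28326672, 345 bp upstream of an internal start site. 3 other places of the locus were kept: one in an intron at 28329223 to 28329486 with a signal of 111.4, one 57 bp upstream of Gfat2, an enzyme gene of hexosamine synthesis, with 61.2, and one 131 bp upstream of another larp start site with 57.3. The absent place had 3.64 times the signal of the best kept one, and they were 2551 bp apart. In the replicates the kept intronic place had 54.7 and 61.3, and it was the only place of the locus in either replicate's own set.

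Alh (FBgn0261238, 3R 7094596 to 7124185, minus strand) had the closest kept neighbour. The absent place at 7108894 to 7109157, in an intron 602 bp upstream of an internal start site, had a signal of 190.1. The kept place at 7110197 to 7110460, with 57.4, began 1040 bp from its end. In replicate 1 this kept place had 40.1 and was in that replicate's own set. In replicate 2 it had 14.3 with a score of 51 and was not in the set. Another kept place, 59 bp upstream of the outer start site, had 58.2, and one 114 bp upstream of CG10068 had 161.8, close to the absent one. The place near CG10068 was kept in both replicates' own sets too, at signals of 81.3 and 81.2 beside 92.9 and 88.6 for the absent place.

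CG6966 (FBgn0038286, 3R 15079320 to 15095631, minus strand) had its absent place 278 bp upstream of the start site, in no annotated gene. A place 7814 bp into the gene, in an intron, had a pooled signal of 108.4 and was kept. In replicate 1 the 2 places had 87.2 and 65.8, and in replicate 2 they had 118.1 and 45.5. The intronic place was kept in both replicates' own sets.

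CG18428 (FBgn0039149, 3R 24109336 to 24110010, plus strand) shared its absent place with another gene. The summit at 24109154 lay 182 bp upstream of CG18428 and 194 bp upstream of eIF4EHP, which runs on the other strand and encodes a cap-binding repressor of translation. A kept place 341 bp upstream of CG13605 had a signal of 72.2, against 175.9. It was in neither replicate's own set, where it had 37.4 and 37.5 and scores of 787 and 771.

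By position, 3 of the 7 summits (larp, CG6966 and CG18428) were at promoters, meaning that the summit was at most 500 bp from any annotated start, and 4 were in introns. The share was 46.2% over the 1892 optimal peaks on the arms, and 59.2% (95% exact binomial interval 52.7 to 65.4, counting error only) over the 245 with at least the signal of Unc-115a. With the limit at 250 bp 1 of the 7 remained, and at 1000 bp there were 5. The shares over the optimal peaks were found at 500 bp only, so the counts at the other limits have no share beside them.

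The members were not all of the strong absent places. Outside their loci 4 pooled places had at least the signal of Unc-115a and no identical interval in the optimal set. One, with 355.2, lay in an intron 3009 bp downstream of a start site of trx, which encodes a histone methyltransferase of the trithorax group, and had 190.6 and 159.5 in replicates 1 and 2 (ranks 54 and 52). Another, with 182.7, was 1181 bp upstream of tara and had 122.0 and 67.6. The remaining 2 had no place in replicate 1's list: one with 206.1, 116338 bp from the nearest coding start site (ATbp) on X, and one with 447.8 on an unplaced contig. Each of the 7 genes had its place in both replicates' lists, as did the places near trx and tara. So did 244 of the 245 optimal peaks on the arms with at least the signal of Unc-115a.

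Of the 89 absent places 61 were on the 6 arms, and the smallest gap of any of these to an optimal peak was the 1040 bp at Alh. The other 28 were on sequences that held no optimal peak, so they have no gap. Of the 1915 optimal peaks 262 (13.7%) had another optimal peak within 1000 bp. The absent places on the arms, 28 of them on 3R and 19 on 2L, had a median signal of 80.7, beside 78.6 for the optimal peaks there. The optimal peaks were not counted by arm, so nothing is read from the split by arm.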

How the data were processed

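Peak lists of 2 replicates of anti-GFP ChIP-seq were used as deposited, on build dm6 per the labels. Per the deposited documentation they were made from alignments of the replicates and 1 shared control. Aligner and peak caller: not given in the sources used here. The deposited signal value, the deposited score (IDR on a scaled negative log2) and the deposited −log10 IDR are the authors' own. The deposited summit offset was added to the start. 16 paired columns of the series-level lists name no replicate and were not used.

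Places were ranked by signal within each list, counted from base 1, and matched to thresholded sets by identical interval. Gene models were Ensembl release 115, without transposable elements, and sequence the Release 6 assembly. Functions were tested on simulated data. Python 3.11.15, numpy 2.4.6, pandas 2.3.3, scipy 1.17.1 and matplotlib 3.10.9 were used.

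Members and lists were chosen with earlier results of these data known. Named genes were the 7, the neighbours at their best places, the kept peaks next to the strongest and weakest, and up to 5 other absent places; genes at the kept and other strong places of a locus were added after their values were seen. Alternatives were other flanks, overlap rules, sets, promoter limits and single replicates. Depth is unknown; the interval covers counting error only.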

Additional observations from a re-analysis of the deposited data

How the results depend on the processing

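No paired analysis was possible because there was 1 group. The 7 genes were chosen for the lack of an identical interval in the optimal set, so the next count describes that choice and tests nothing. All 7 best places lacked a counterpart under 1 bp overlap, a 1000 bp limit and the conservative set. The count was also 7 with flanks of 1000 and 10000 bp and in either replicate alone (lowest and highest 7). With the gene span alone the count was 6, because the best place of CG6966 became the kept one with 108.4; the best signals there were 42.3 for cbt and 23.9 for CG18428, and cbt had 172.4 with a flank of 1000 bp. The other best signals were the same under every flank. The 89 absent strong places became 66 at a score of 1000, 69 in the paired list, and 48 to 65 in a single replicate's list. The 218 places became 118 without a flank, 134 with 1000 bp, 305 with 10000 bp and 152 to 191 in single replicates. Promoter summits numbered 1 at 250 bp and 5 at 1000 bp, against 3, and 3 in either replicate. No share over the optimal peaks was found at 250 or 1000 bp. The lists without counts limit all statements to ranks and signal values.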

Other observations

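Outside the 6 main arms the pooled list held 28 strong places that were absent from the optimal set. The strongest, on the unplaced contig that held a pooled signal of 447.8, had a signal of 434.9 in replicate 2, which ranked 1 in that replicate's list, and no overlapping place in the list of replicate 1. On X a place with 206.1 had 195.2 in replicate 2 and likewise none in replicate 1. On 3L a place 9131 bp upstream of CG33217, with a pooled signal of 135.2, had 30.6 in replicate 1 and 104.9 in replicate 2. On the arms 22 of the 61 absent places (36.1%) were at promoters, 23 in introns, 15 between genes and 1 in a coding exon. Of the 1892 optimal peaks on the arms 46.2% were at promoters, and their other locations were not counted. CG33217 was chosen after its values were seen.

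A further absent place on 3R, in an intron 5810 bp upstream of the nearest start site of tara, had a pooled signal of 134.4, with 88.0 and 47.2 in replicates 1 and 2. At RpL13A, a ribosomal protein gene, an absent place 42 bp upstream of the start site had a pooled signal of 125.2, with 67.3 and 51.4 in the replicates. These places were chosen after their values were seen.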
